A study of Mus musculus with 4 samples.

Results

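Expression of 10 genes for transcription factors and a general transcription subunit of undifferentiated spermatogonia was examined by bulk RNA-seq of spermatogonia-enriched testis cells. The genes were taken by name from a list of factors known in these cells, namely Zbtb16, Foxo1, Foxc2, Sall4, Pou5f1, Utf1, Pax7, Eomes, T and Taf4b, and all 10 were found among the 78275 genes of the count table. The groups were 2 libraries from Sirt7-/- mice, which lack the nuclear deacetylase SIRT7 in all cells, and 2 libraries from WT mice. Both groups were 129S1/Sv males at postnatal day (Pnd) 5, and the labels give no treatment. Testis cells of each genotype were depleted of somatic cells by plating, in which somatic cells stick to the dish earlier than germ cells, and were not sorted. The study asked whether transcription changes in spermatogonia when SIRT7 is lost and acetylation of histone H3 at lysine 36 increases.

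Spermatogonial stem cells are part of the undifferentiated spermatogonia, the pool that both renews itself and supplies cells for differentiation. PLZF, the product of Zbtb16, marks this pool and is needed to keep it. FOXO1 acts there downstream of PI3K and AKT, which move it out of the nucleus, and SALL4 is a zinc finger factor that works with the NuRD corepressor complex and binds PLZF. FOXC2, PAX7, EOMES and T have each been tied in mice to small subsets of these cells with stem cell activity. Pou5f1 and Utf1 are better known from pluripotent stem cells, and Taf4b encodes a variant subunit of TFIID, the complex that recruits RNA polymerase II.

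The libraries held 22007504 to 22181066 counts each. Sirt7 had 129 and 122 counts in the Sirt7-/- libraries, against 704 and 692 in the WT libraries, and its log2 fold change was -2.47 ± 0.11 (log2 fold changes are given ± SE throughout). In edgeR's quasi-likelihood F test its adjusted p, corrected by Benjamini-Hochberg over all genes tested, was 3.63e-06. All 8 germ cell markers were detected in every library, and they summed to 1805 and 1617 CPM (counts scaled to a library of 1000000) in Sirt7-/- cells, against 1693 and 1784 CPM in WT cells. The 10 Sertoli cell markers summed to 1924 and 2400 CPM in Sirt7-/- cells and 2130 and 2063 CPM in WT cells, so somatic transcripts were still present. In bulk samples, fewer cells of a type and less RNA per cell cannot be told apart.

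None of the 10 genes was called different between genotypes at an adjusted p under 0.1, a threshold that 17 of all 19736 genes tested passed (0.0861%). The count of 0 was the same with DESeq2, which called 48 of 14333 genes with an adjusted p (0.335%) and gave 9 of the 10 an adjusted p, and with limma-voom. At an unadjusted p under 0.05, Utf1 and Foxo1 passed in all 3 tools, beside 8.62% of all genes with edgeR. For 3 genes, Utf1, Foxo1 and Eomes, both Sirt7-/- libraries lay above both WT libraries, as they did for 20.3% of all genes. For T alone both Sirt7-/- libraries lay below both WT libraries, as they did for 19.4% of all genes, and the genotypes overlapped for the other 6. The log2 fold change was within 0.3 of no change for 8 of the 10. Its median was 0.030 over the 10 genes and 0.0029 over all genes tested. Every one of the 10 had at least 32 counts in each library, so the filter on low counts removed none.

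**Figure D1:**
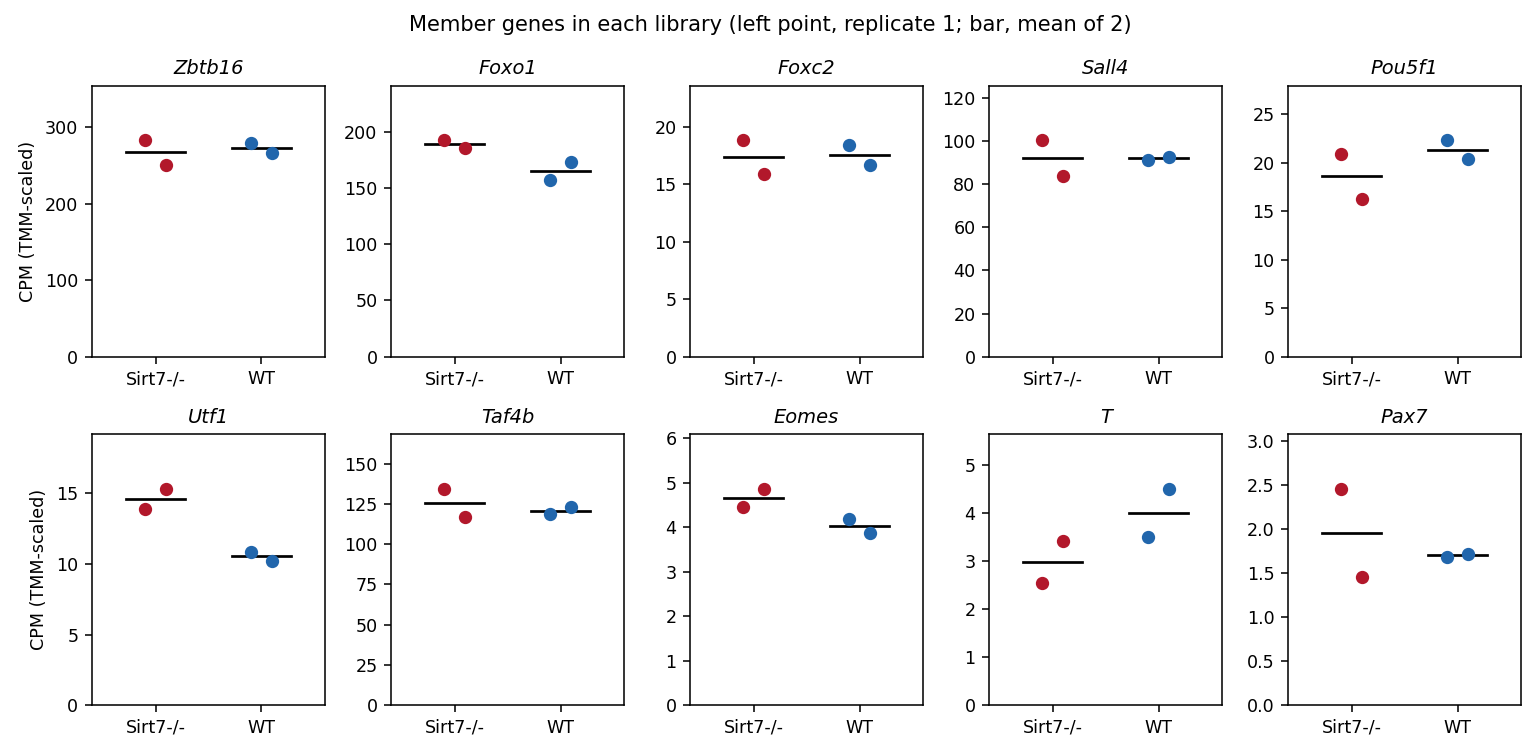
Expression of the 10 genes in each library, in CPM scaled by TMM on axes that start at 0. Points are libraries, Sirt7-/- in red on the left and WT in blue on the right, with replicate 1 as the left point, and bars are the means of 2 libraries. Both Sirt7-/- points lie above both WT points for Utf1, Foxo1 and Eomes, and below them for T.

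Utf1, a chromatin-associated factor of pluripotent cells and early spermatogonia on chromosome 7 from 139523649 to 139525025 (GRCm39, plus strand), had the largest difference of the 10 in either direction. It had 13.9 and 15.3 CPM in Sirt7-/- cells, against 10.9 and 10.2 CPM in WT cells, from 305 and 337 counts in Sirt7-/- and 239 and 227 counts in WT. The higher WT library thus lay well below the lower Sirt7-/- library. The mean was 14.6 ± 1.04 CPM in Sirt7-/- cells and 10.5 ± 0.429 CPM in WT cells (SD, n = 2 each), a log2 fold change of 0.47 ± 0.12 and a fold of 1.38 with a 95% interval from 1.16 to 1.66. The unadjusted p was 0.00214, which was rank 145 among all genes tested with edgeR. The adjusted p was 0.291, and the difference was not called.

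Foxo1, the forkhead factor downstream of PI3K and AKT, lies on chromosome 3 from 52175757 to 52260642 (plus strand). It had 193 and 186 CPM in Sirt7-/- cells, against 158 and 173 CPM in WT cells. The groups did not overlap, although the gap between them was smaller than the gap between the WT libraries. The log2 fold change was 0.20 ± 0.07, with a 95% interval from 0.05 to 0.34, an unadjusted p of 0.0151 and an adjusted p of 0.478 in edgeR. FOXO1 is controlled mainly by phosphorylation and its place in the cell, which RNA counts do not measure.

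Eomes and T encode T-box factors, and their genotype differences had opposite signs. Eomes, on chromosome 9 from 118307280 to 118315200 (plus strand), had 4.46 and 4.87 CPM in Sirt7-/- cells, against 4.18 and 3.88 CPM in WT cells. Its log2 fold change was 0.21 ± 0.17 (adjusted p = 0.762, edgeR). T, also named brachyury, on chromosome 17 from 8653062 to 8661328 (plus strand), had 2.55 and 3.41 CPM in Sirt7-/- cells, against 3.50 and 4.51 CPM in WT cells. Its log2 fold change was -0.43 ± 0.22, with a 95% interval from -0.90 to 0.05 and an adjusted p of 0.610 in edgeR. The higher Sirt7-/- library and the lower WT library were nearly level, at 75 and 77 counts. T is overlapped by the antisense gene Gm64496, whose counts were 20.5% of those of T, and the strand setting of the counting is not given in the sources used here. For the other overlapped genes of the 10, the share was highest for Eomes, at 7.05%.

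The bases before the RefSeq transcription start are shown for the 4 genes whose genotypes did not overlap, as the sequence context of these differences. They come from the RefSeq promoter table of build GRCm38.p6, in which 6 of the 10 genes were matched. Foxo1 and Eomes are given for the whole 250 bases before the start. Utf1 and T are given as the first 130 and 57 of those bases, up to the first base that lies in an annotated GENCODE transcript. For Eomes alone of the 4, the bases after the RefSeq start were not found as 1 stretch in a GENCODE transcript of the gene. All run 5′ to 3′ on the plus strand, and capitals mark GC boxes, GGGCGG on either strand, so that CCGCCC is a box on the other strand.
Utf1, chr7:139943606-139943735: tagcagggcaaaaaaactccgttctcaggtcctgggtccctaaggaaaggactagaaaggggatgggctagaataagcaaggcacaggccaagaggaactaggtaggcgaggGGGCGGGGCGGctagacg
Foxo1, chr3:52268087-52268336: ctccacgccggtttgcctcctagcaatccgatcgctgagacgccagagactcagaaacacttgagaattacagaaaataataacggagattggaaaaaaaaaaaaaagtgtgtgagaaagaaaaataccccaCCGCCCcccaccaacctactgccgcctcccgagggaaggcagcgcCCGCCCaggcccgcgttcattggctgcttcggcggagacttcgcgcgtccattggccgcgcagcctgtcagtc
Eomes, chr9:118477939-118478188: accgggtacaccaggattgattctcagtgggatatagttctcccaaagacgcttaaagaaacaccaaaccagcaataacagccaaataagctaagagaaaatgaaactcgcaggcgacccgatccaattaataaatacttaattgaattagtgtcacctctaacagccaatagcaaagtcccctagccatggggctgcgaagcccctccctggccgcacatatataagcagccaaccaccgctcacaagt
T, chr17:8434173-8434229: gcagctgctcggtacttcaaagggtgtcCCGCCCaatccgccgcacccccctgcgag

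The GC box is a known binding sequence of SP family factors. Over the whole 250 bases it occurred 4 times for Utf1, where 2 of the boxes share 1 base. It occurred 2 times for Foxo1, 2 times for T and 0 times for Eomes. Among the matched genes whose genotypes overlapped, Pax7 held 1, and the 2 entries of Pou5f1 held 1 and 0. Before the first base found in a GENCODE transcript, the box occurred 2 times for Utf1, 1 time for T, and 0 times for Pax7 and Pou5f1. The further boxes of these genes can therefore lie in transcribed bases. Foxo1 and Eomes had no such base in the window. Of all 32851 promoters in the table, 32.7% held at least 1 GC box in the whole 250 bases. The same 250 bases were 61.6% G and C for Utf1, 56.0% for Foxo1, 62.8% for T and 46.4% for Eomes. The median over all promoters was 52.4%. Motifs bound by factors of these families, and the TATA box, were searched on both strands in the 7 entries of the 6 matched genes, which also included Pax7 and Pou5f1. The octamer ATGCAAAT of POU factors, the forkhead core GTAAACA, the T-box half-site AGGTGTGA and the TATA box letters TATAAA had 0 exact matches. Their shares over all promoters were 1.6%, 3.17%, 1.12% and 12.4%. Only these exact letters were searched, so variants, such as tatataag in the printed Eomes bases, were not counted. A match is a description of the letters in this window and not a binding site.

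**Figure D2:**
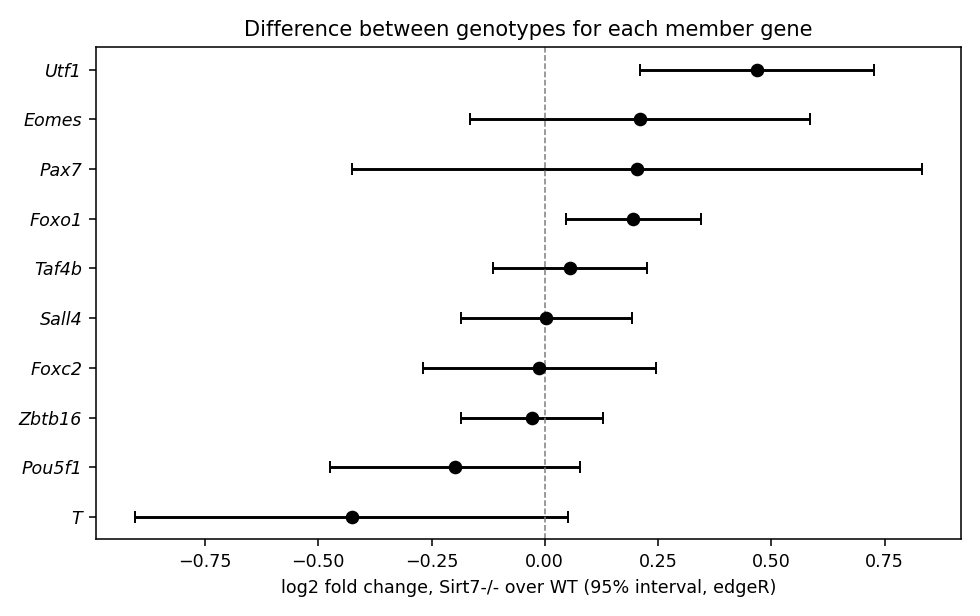
Log2 fold change of each gene, Sirt7-/- over WT, with its 95% interval from edgeR, ordered from the most positive to the most negative. The intervals of Utf1 and Foxo1 lie above 0, and those of the other 8 genes include it, with the widest for Pax7 (-0.42 to 0.83).

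The other abundant factors were close to level between genotypes. Zbtb16, on chromosome 9 from 48563141 to 48748664 (minus strand), had 283 and 251 CPM in Sirt7-/- cells, against 279 and 266 CPM in WT cells. Both WT libraries lay within the range of the Sirt7-/- libraries. The log2 fold change was -0.03 ± 0.07 (adjusted p = 0.943, edgeR), and its 95% interval, taken to folds, ran from 0.880 to 1.09. Sall4, on chromosome 2 from 168590252 to 168609863 (minus strand), had 100.5 and 83.8 CPM in Sirt7-/- cells and 91.4 and 92.4 CPM in WT cells. Its means were 92.1 ± 11.8 CPM in Sirt7-/- cells and 91.9 ± 0.730 CPM in WT cells (SD, n = 2 each), and the fold had a 95% interval from 0.879 to 1.14.

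Pou5f1 encodes OCT4, a POU factor that germ cells share with pluripotent cells, and lies on chromosome 17 from 35816789 to 35822274 (plus strand). It had 20.9 and 16.3 CPM in Sirt7-/- cells, against 22.3 and 20.4 CPM in WT cells. The groups overlapped, since the higher Sirt7-/- library lay above the lower WT library. The log2 fold change was -0.20 ± 0.13 (adjusted p = 0.694, edgeR), opposite in sign to that of Utf1. OCT4 is known to activate Utf1 in embryonic stem cells, and a link between these differences was not tested. The 7 Pou5f1-related pseudogenes in the table had 2 counts in all over the 4 libraries.

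Foxc2 and Pax7 mark rare cells among undifferentiated spermatogonia. Foxc2, on chromosome 8 from 121842910 to 121845634 (plus strand), had 18.9 and 15.9 CPM in Sirt7-/- cells, against 18.4 and 16.7 CPM in WT cells. Its log2 fold change was -0.01 ± 0.12 (adjusted p = 0.985, edgeR), with a 95% interval of the fold from 0.830 to 1.18. Pax7, on chromosome 4 from 139464373 to 139560839 (minus strand), had the lowest counts of the 10, with 54 and 32 in Sirt7-/- cells and 37 and 38 in WT cells. Both WT libraries lay between the Sirt7-/- libraries, and the 95% interval of its fold, from 0.745 to 1.78, was the widest of the 10. PAX7 is also the factor of muscle satellite cells. Of 6 skeletal muscle and satellite cell markers, the related Pax3 had 0 to 5 counts and Myod1 1 to 2 counts per library, while Acta1 had 47 to 62 and Ckm 18 to 49. The 6 summed to 3.36 and 4.41 CPM in Sirt7-/- cells and 4.77 and 4.33 CPM in WT cells. A part of muscle cells in the Pax7 counts was not tested.

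Taf4b, the germline-enriched variant of the TFIID subunit gene Taf4, had 134 and 117 CPM in Sirt7-/- cells, against 119 and 123 CPM in WT cells. Both WT libraries lay within the range of the Sirt7-/- libraries. The log2 fold change was 0.06 ± 0.08 (adjusted p = 0.873, edgeR), with a 95% interval of the fold from 0.924 to 1.17.

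For 6 of the 10 genes the Sirt7-/- libraries differed from each other by more than the fitted difference between genotypes. In replicate 1, 7 of the 10 were higher than in replicate 2, and only Utf1, Eomes and T were lower, while 47.8% of all genes tested were higher in replicate 1. The log2 ratio of replicate 1 to replicate 2 was 0.17 for Zbtb16, 0.21 for Taf4b, 0.24 for Foxc2, 0.26 for Sall4, 0.36 for Pou5f1 and 0.75 for Pax7. The SD that counting alone gives such a ratio was 0.05 for Sall4, 0.10 for Pou5f1 and 0.32 for Pax7. The WT ratio was -0.02 for Sall4, 0.13 for Pou5f1 and -0.03 for Pax7. Marker sums differed between the same Sirt7-/- libraries, with a log2 ratio of 0.16 for the germ cell list, -0.32 for the Sertoli cell list and -0.46 for the 6 peritubular myoid markers. The other lists went either way. The ratio was 0.15 for Leydig cell, 0.22 for leukocyte and 0.41 for erythroid markers. It was -0.21 for stromal, -0.07 for endothelial and -0.39 for skeletal muscle and satellite cell markers. The part of the cell mix in the replicate differences was not tested.

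**Figure D3:**
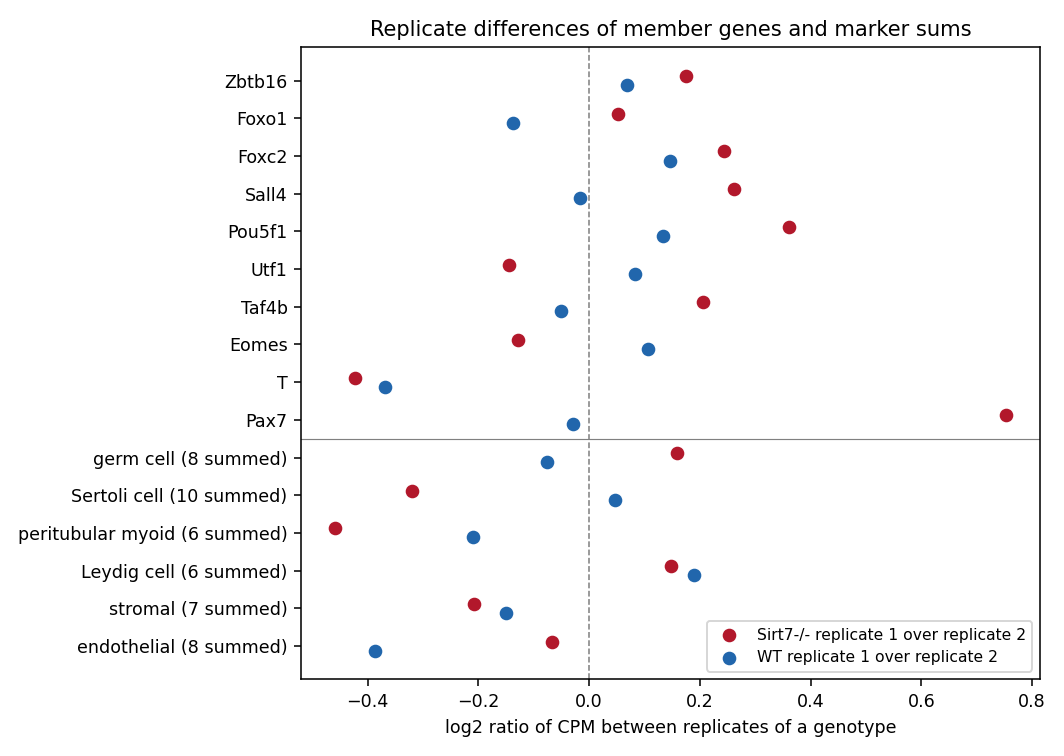
Log2 ratio of CPM in replicate 1 to replicate 2, within Sirt7-/- in red and within WT in blue, for the 10 genes above the line and for summed marker lists below it. Within Sirt7-/-, the germ cell sum, the Leydig cell sum (0.15) and 7 of the 10 genes lie right of 0. The Sertoli (-0.32), peritubular myoid (-0.46), stromal (-0.21) and endothelial (-0.07) sums lie left of it.

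The sign of 5 fold changes depended on which library entered the fit. Without Sirt7-/- replicate 1, Pax7 had a log2 fold change of -0.22, Sall4 of -0.13 and Taf4b of -0.051, and without Sirt7-/- replicate 2 the values were 0.54, 0.13 and 0.16. Zbtb16 and Foxc2 were at -0.12 and -0.14 without Sirt7-/- replicate 1, and at 0.062 and 0.11 without Sirt7-/- replicate 2. Without WT replicate 1, Zbtb16 was at 0.010, Foxc2 at 0.066 and Sall4 at -0.0022. Utf1, Foxo1, Eomes, Pou5f1 and T kept their sign in all 14 other settings tried. For Utf1, Foxo1, Eomes and T, whose groups did not overlap, leaving out 1 library could hardly change the sign. The other settings refit the same 4 libraries, so the kept signs are no separate support. Utf1 ranged from 0.38 to 0.54, Foxo1 from 0.13 to 0.27, Eomes from 0.15 to 0.27, Pou5f1 from -0.39 to -0.025 and T from -0.65 to -0.23. The Pou5f1 difference nearly vanished, at -0.025, without Sirt7-/- replicate 2, in which its count was lowest. Log2 fold changes also fell with exon length over all genes at 10 CPM or more (Spearman's rho = -0.30 across 10057 genes, which are no independent replicates), and Utf1, with 1280 exonic bases, had the shortest exon length of the 10. With the trend over length removed, its log2 fold change was 0.38.

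**Figure D4:**
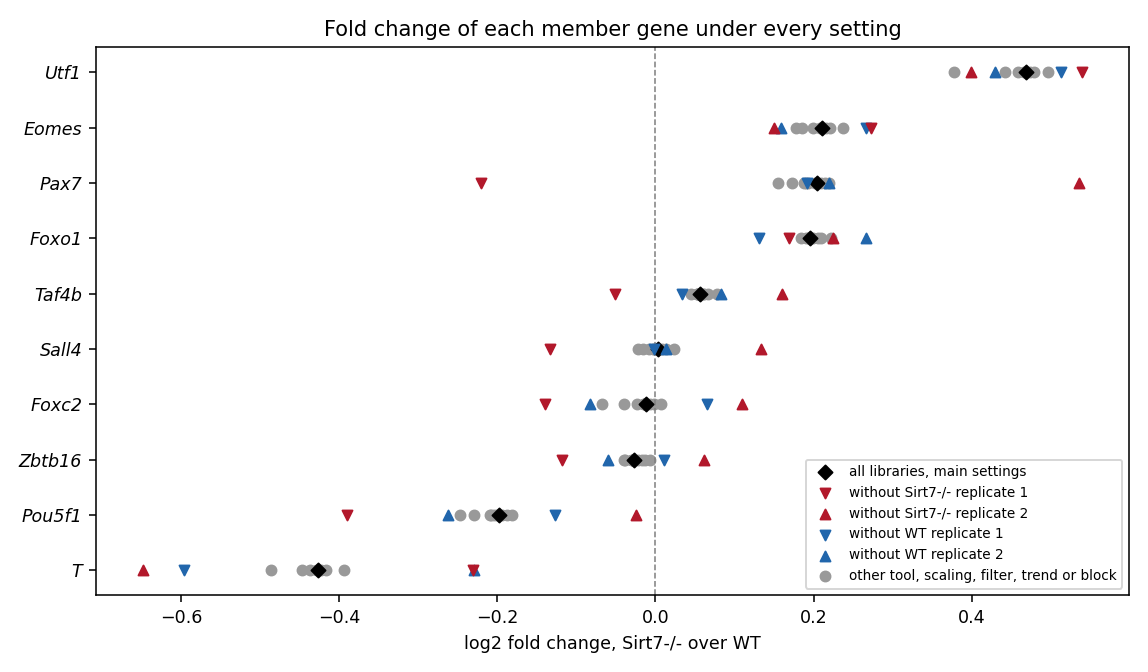
Log2 fold change of each gene, Sirt7-/- over WT, with all libraries (black diamonds), with each library left out (triangles, red for Sirt7-/- and blue for WT) and under the other settings (grey). Every point of Utf1, Eomes and Foxo1 lies right of 0 and every point of Pou5f1 and T left of it. The points without a Sirt7-/- replicate span from -0.22 to 0.54 for Pax7.

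Levels of different genes were compared as TPM, counts divided by exonic length and then scaled to the same total in every library. Zbtb16 was the most abundant at 98.1 ± 7.97 TPM in Sirt7-/- cells and 103 ± 3.14 TPM in WT cells (SD, n = 2 each), and over the 4 libraries its mean was 92.3 times that of Pax7. Foxo1 (mean of 4 libraries 67.0 TPM), Taf4b (62.0 TPM) and Sall4 (57.3 TPM) came next, with overlapping ranges between neighbours in the order. Utf1 followed at 34.4 TPM, and its range did not overlap that of the genes on either side. Pou5f1 (22.7 TPM) and Foxc2 (22.5 TPM) overlapped, and in Sirt7-/- cells alone Foxc2 was the higher, at 22.0 and 20.7 TPM. T (4.89 TPM) and Eomes (3.66 TPM) also overlapped, and Pax7 was lowest at 1.09 TPM. With the length of the longest transcript in place of all exonic bases, Sall4 and Taf4b changed places, at 49.7 and 49.3 TPM. With that length Utf1 (22.8 to 33.0 TPM over the 4 libraries) overlapped Pou5f1 (21.5 to 30.3 TPM), and Pou5f1 lay above Foxc2 (16.1 to 19.1 TPM) in every library, so these steps of the order depend on the length used.

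Set beside the relatives listed, Zbtb16, Foxc2, Sall4, Taf4b and Pax7 were the more abundant in every library. Zbtb16 exceeded Zbtb32 3.27 and 2.76 times in Sirt7-/- libraries and 3.56 and 3.23 times in WT libraries. Pou5f1 was not above Pou3f1 throughout, with a ratio of 0.936 and 0.668 in Sirt7-/- libraries and 1.02 and 0.970 in WT libraries. Foxc2 exceeded Foxc1 15.3 and 12.3 times in Sirt7-/- libraries and 16.4 and 14.9 times in WT libraries. Sall4 exceeded Sall1, the next of its family, 1.78 and 1.56 times in Sirt7-/- libraries and 1.70 and 1.80 times in WT libraries. With all exonic bases as the length, Foxo1 was not the most abundant FOXO gene. Foxo4 had 76.3 ± 1.93 TPM in Sirt7-/- cells and 84.1 ± 0.273 TPM in WT cells. Levels of relatives were computed with this length alone, so their order can depend on it. The ratio of Foxo1 to Foxo4 was 0.920 and 0.925 in Sirt7-/- libraries, against 0.718 and 0.797 in WT libraries, and the groups did not overlap. In CPM, each gene was already apart on its own, Foxo1 higher and Foxo4 lower in Sirt7-/- cells. Such gaps were found for 20.3% and 19.4% of all genes. The ratio of Taf4b to Taf4 was 2.26 and 1.95 in Sirt7-/- libraries and 1.92 and 2.06 in WT libraries. The ratio of T to Eomes was 0.945 and 1.16 in Sirt7-/- libraries, against 1.38 and 1.92 in WT libraries. These ratios describe the libraries and were not tested.

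**Figure D5:**
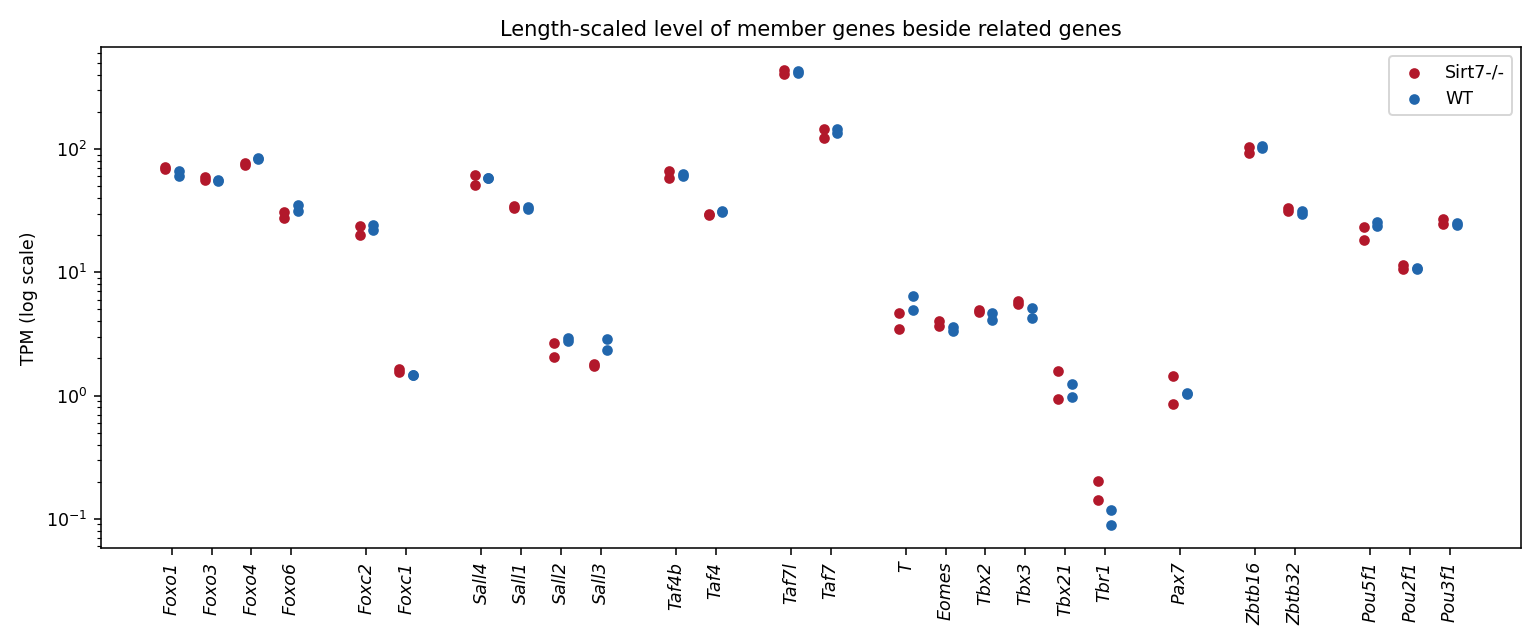
TPM on a log axis for 9 of the 10 genes beside their relatives (Utf1 is not drawn) and for the TFIID pair Taf7l and Taf7, Sirt7-/- libraries in red and WT libraries in blue, 1 point for each library. Foxc2 stands far above Foxc1, Taf4b above Taf4, and Foxo1 beside Foxo3 and Foxo4. Pax3 is left out because it was at 0 in some libraries.

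Among 89 other genes of the same programme in 8 lists, 87 passed the filter and 0 were called, and their median log2 fold change was 0.0053. At an unadjusted p under 0.05, 4 of the 87 were higher and 4 lower in Sirt7-/- cells with edgeR. Over all genes tested, 8.62% passed this threshold in either direction, and the genes named from these lists stand beside that share. With DESeq2, 1 gene was called, Epcam.

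Of 16 other transcription and RNA regulators of undifferentiated spermatogonia, 0 had an unadjusted p under 0.05 and a higher level, and 1 had a lower level. This was Etv5, an ETS factor induced by GDNF, at 142 ± 18.3 CPM in Sirt7-/- cells and 165 ± 11.4 CPM in WT cells (SD, n = 2 each), with a log2 fold change of -0.21 ± 0.09 (adjusted p = 0.549, edgeR). Dmrt1, the most abundant of the list, was at 344 ± 21.5 CPM in Sirt7-/- cells and 340 ± 6.57 CPM in WT cells. Of 10 receptors and surface proteins, 2 were at an unadjusted p under 0.05, both higher. Epcam, an adhesion protein of spermatogonia, had a log2 fold change of 0.33 ± 0.07 (adjusted p = 0.191, edgeR, and 0.0982, DESeq2). Upp1, a uridine phosphorylase gene, had a log2 fold change of 0.42 ± 0.10 (adjusted p = 0.254, edgeR). The median of the first list was -0.03 and that of the second -0.02. Of 10 genes of differentiating spermatogonia, 0 were at an unadjusted p under 0.05, with a median of 0.02.

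Among partners and regulators of the 10 factors, 0 genes were called. Of 11 genes of PI3K and AKT control of FOXO factors, 1 was higher at an unadjusted p under 0.05. This was Sgk1, a kinase gene whose product phosphorylates FOXO factors, with a log2 fold change of 0.21 ± 0.06 (adjusted p = 0.431, edgeR). The median of this list was -0.04. Both Sirt7-/- libraries lay below both WT libraries for 7 of its 11 genes, beside 19.4% of all genes. They lay above for 2, beside 20.3% of all genes. Other lists held such gaps too. They lay below for 5 and above for 2 of 12 NuRD genes, and below for 2 and above for 1 of 6 PLZF partners. They lay below for 0 and above for 5 of 16 TFIID subunits, and below for 3 and above for 7 of 14 relatives tested. Of 12 NuRD genes, Chd3, a remodelling ATPase, was lower at an unadjusted p of 0.00645, with a log2 fold change of -0.26 ± 0.08 (adjusted p = 0.408, edgeR), and 0 were higher. The lists of 6 PLZF partners and of 16 TFIID subunits had 0 genes at an unadjusted p under 0.05. Taf7l, a germ cell variant, was at 421 ± 23.4 TPM in Sirt7-/- cells and 421 ± 8.09 TPM in WT cells.

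Markers of other cells were read in the same fit. Of 7 stromal markers, 3 were called lower in Sirt7-/- cells and 0 higher. These were the matrix genes Postn (log2 fold change -1.47 ± 0.19), Dcn (-0.54 ± 0.09) and Col3a1 (-0.45 ± 0.07), with adjusted p of 0.0261, 0.0924 and 0.0924 in edgeR. The list's median log2 fold change was -0.45, whereas its sum was 1012 and 1169 CPM in Sirt7-/- cells and 1144 and 1269 CPM in WT cells, and the groups overlapped. The abundant Col1a1 and Col1a2 had log2 fold changes of -0.09 ± 0.09 and 0.03 ± 0.08. Of 6 erythroid markers tested, 5 were higher at an unadjusted p under 0.05, and the erythroid list summed to 1536 and 1154 CPM in Sirt7-/- cells, against 1018 and 925 CPM in WT cells. The 8 endothelial markers, cells that also express Foxo1 and Foxc2, summed to 99.2 and 104 CPM in Sirt7-/- cells and 97.2 and 127 CPM in WT cells, with 0 markers at 0. Their part in the values above was not tested. Scaling the libraries to the 8 germ cell markers in place of all genes gave log2 fold changes of 0.50 for Utf1, 0.22 for Foxo1 and -0.39 for T, and none of the 10 was called.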

How the data were processed

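RNA came from pellets of 200000 cells, 2 per genotype, and strand-specific mRNA libraries were read as 150 bp pairs. The authors used HISAT2 for alignment to GRCm39 and featureCounts for counting. What they deposited are raw, whole-number counts per gene. Tool versions, the annotation, the strand setting and the rule for multiply aligned reads are not given in the sources used, so counts of overlapping genes can be shared or dropped.

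Of 78275 identifiers, 78263 matched GENCODE M39 without their version. In R 4.3.3, edgeR 4.0.16 kept genes by filterByExpr (minimum count 10), scaled libraries by TMM and tested 19736 genes by the quasi-likelihood F test without covariates, and all p-values were adjusted over them (Benjamini-Hochberg, called under 0.1). SEs are the log2 fold change over the square root of F, and 95% intervals use 10.85 degrees of freedom. CPM uses TMM-scaled library sizes. DESeq2 1.42.0, limma-voom 3.58.1, other scalings and filters, a replicate block, and each library left out were alternatives. The test was checked on simulated data. Depth was 22007504 to 22181066 counts per library, and Pax7, T and Eomes, with the fewest counts of the 10, had the largest SEs.

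Groups came from the labels, which only number the replicates. The study's methods call them independent biological replicates and do not give the animals behind each pellet. The 10 genes and all lists were chosen with earlier results of these data known. All 10 genes are named, with Sirt7, and from the other lists the called genes or, where none was called, genes with the smallest p or highest level. Some lists are given by their counts or sums alone. Pax3, Myod1, Acta1, Ckm, Foxc1, Foxo4, Sall1, Taf4, Zbtb32, Pou3f1 and Gm64496 are named as relatives, markers or neighbours and were chosen after their values were seen. The result of 1 gene of the PI3K and AKT list is not reported here.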

Additional observations from a re-analysis of the deposited data

How the results depend on the processing

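With 2 libraries per genotype, the counts of genes called depended on the setting. Over all genes 17 were called, against 48 with DESeq2, 9 at an adjusted p under 0.05, and 0 without the filter on low counts, where 2032 had an unadjusted p under 0.05. Leaving out each library in turn gave 0 to 465. The count was 0 without either WT library, where 596 and 824 genes had an unadjusted p under 0.05, 8 without Sirt7-/- replicate 1 and 465 without Sirt7-/- replicate 2. None of the 10 genes was called except with the replicate number as a block. That fit called 236 genes in all, 1 of the 10 (Utf1, adjusted p = 0.0734 in edgeR, against 0.183 to 0.982 over all its other alternatives) and 2 of the other programme genes (Epcam and Upp1). Nothing in the labels ties equal numbers together. Deviations of same-numbered libraries had a correlation of 0.04 over all genes tested and 0.14 over those at 10 CPM or more, with only 2 pairs. Of the other programme genes, 0 were called, against 1 with DESeq2 and 0 to 2 with a library left out.

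Signs changed for values near 0, and also for Pax7, which was at 0.20 in the main fit and -0.22 without Sirt7-/- replicate 1. Sall4 was at -0.0026 with limma-voom, -0.0077 with total-count scaling, -0.0017 with the block, -0.015 with the length trend removed and -0.022 with the GC trend removed, and Foxc2 was at 0.0069 with germ cell scaling. With each library left out, log2 fold changes ranged from -0.12 to 0.062 for Zbtb16, -0.14 to 0.11 for Foxc2, -0.13 to 0.13 for Sall4, -0.22 to 0.54 for Pax7 and -0.051 to 0.16 for Taf4b. The cause was not tested. The length and GC trends were chosen as alternatives after seeing the data. The intervals of Pax7, T and Eomes leave room for changes that this depth and number of libraries cannot show.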

Other observations

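Among relatives of the 10 genes, the values with the smallest p were those of Sall3 and Tbx3. Sall3, a SALL family gene, had 92 and 95 counts in Sirt7-/- cells, against 148 and 122 in WT cells, with a log2 fold change of -0.52 ± 0.17 (SE; unadjusted p = 0.0107, adjusted p = 0.466, edgeR). Tbx3, a T-box gene, had 289 and 308 counts in Sirt7-/- cells, against 218 and 261 in WT cells, with a log2 fold change of 0.32 ± 0.13 (SE; unadjusted p = 0.0257, adjusted p = 0.511, edgeR). Both pairs of groups were apart, and neither gene was called.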
